A study of Mus musculus with 12 samples.

Results

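Ppp2r1b, Ap3m1, Ncoa3, Scrn1 and Ccdc152 are 5 protein-coding genes of the mouse whose last exons run into a gene on the opposite strand, and all 5 had higher counts in brain after an electrically induced convulsion than in naive brain, in total RNA, in RNA recovered with the U1 small nuclear ribonucleoprotein, or in both. They are 5 of the 55471 annotated genes in the count tables and were named by symbol together with their opposite-strand partners: Ppp2r1b with Sik2, Ap3m1 with Vcl, Ncoa3 with Sulf2, Scrn1 with Wipf3, and Ccdc152 with Selenop. The members were chosen by their higher counts in MECS than in naive libraries of this same series, in input or U1 RNA, so their differences between stimulated and naive brain are given below as values and are not tested again. What the choice did not use, and what is tested, is the difference between U1-bound and input RNA averaged over both states, and the behaviour of the partner genes, of the other features of the 5 loci and of related genes.

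The study set U1-bound RNA beside bulk RNA from mouse brain with and without neuronal stimulation, under a title that names U1 snRNP binding and intronic polyadenylation. Male C57BL6JL mice aged 3 to 5 months were either stimulated once by maximal electroconvulsive stimulation (MECS), in which ear clips delivered 85 mA for 1 s and tissue was taken 90 min afterwards, or handled in parallel without a stimulus (naive). Mixed cortex and hippocampus was homogenised, irradiated with ultraviolet light at 400 mJ per cm2 and lysed; part of each lysate was kept as input RNA and the rest was precipitated with an antibody to U1-70K, a protein of the U1 particle, to give U1 RNA. The 12 libraries form 4 groups of 3: MECS input, naive input, MECS U1 and naive U1. No control precipitate was analysed here, the labels do not say whether a lysate came from 1 mouse or from pooled tissue, and p-values therefore measure the spread between these samples.

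U1 snRNP recognises 5′ splice sites in nascent transcripts, and it is also known for shielding introns from premature cleavage and polyadenylation. The 5 genes encode proteins of unrelated kinds. Ppp2r1b encodes the beta form of the scaffold subunit of protein phosphatase 2A, Ap3m1 the medium subunit of the AP-3 adaptor that sorts cargo on endosomes, and Ncoa3 a coactivator of nuclear receptors. Scrn1 encodes secernin, described as a regulator of exocytosis in mast cells, and Ccdc152 a coiled-coil protein. Among the partners, Sik2 encodes a salt-inducible kinase that holds CREB coactivators out of the nucleus, Vcl encodes vinculin of focal adhesions, Sulf2 an extracellular sulfatase acting on heparan sulfate, Wipf3 an actin regulator that binds proteins of the WASP family, and Selenop a secreted carrier of selenium.

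All 5 pairs are arranged tail to tail: each member and its partner are transcribed towards each other and share their 3′ ends. Coordinates are those of GENCODE M21 on GRCm38, the same assembly as mm10. Ppp2r1b (ENSMUSG00000032058) lies on the plus strand of chromosome 9 from 50845301 to 50894229, and 1429 of its 6449 exon bases, or 22.2%, lie inside Sik2, which is on the minus strand from 50892801 to 51009073. Ap3m1 (ENSMUSG00000021824) lies on the minus strand of chromosome 14 from 21031442 to 21052508, and 31.9% of its 7015 exon bases lie inside Vcl, on the plus strand from 20929398 to 21033676. Ncoa3 (ENSMUSG00000027678) lies on the plus strand of chromosome 2 from 165992636 to 166073242 and shares only its last 154 bases, 1.95% of its exons, with Sulf2, on the minus strand from 166073089 to 166155663.

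Scrn1 (ENSMUSG00000019124) lies on the minus strand of chromosome 6 from 54501173 to 54566489, and its shared stretch with Wipf3 (plus strand, 54429603 to 54503768) is 2596 bases long, but only 242 of its 8613 exon bases lie there, while 36.5% of the exon bases of Wipf3 do. Ccdc152 (ENSMUSG00000091119) is the shortest, with 1358 exon bases on the minus strand of chromosome 15 from 3280070 to 3303526, and 32.3% of them lie inside Selenop, on the plus strand from 3268547 to 3280508. The exon-to-exon overlaps of Ap3m1 and Ppp2r1b were long for such pairs. They were ranked among 1397 protein-coding genes with a tail-to-tail exon overlap and the larger part of their exon bases outside the partner. Of these, 97.1% had a shorter overlap than Ap3m1 and 93.1% a shorter one than Ppp2r1b. The exon-to-exon overlaps of Ccdc152, Scrn1 (242 bases) and Ncoa3 were in the middle of the range, with 61.9%, 46.9% and 35.4% of the genes shorter. The median was 265 bases over all of them.

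**Figure D1:**
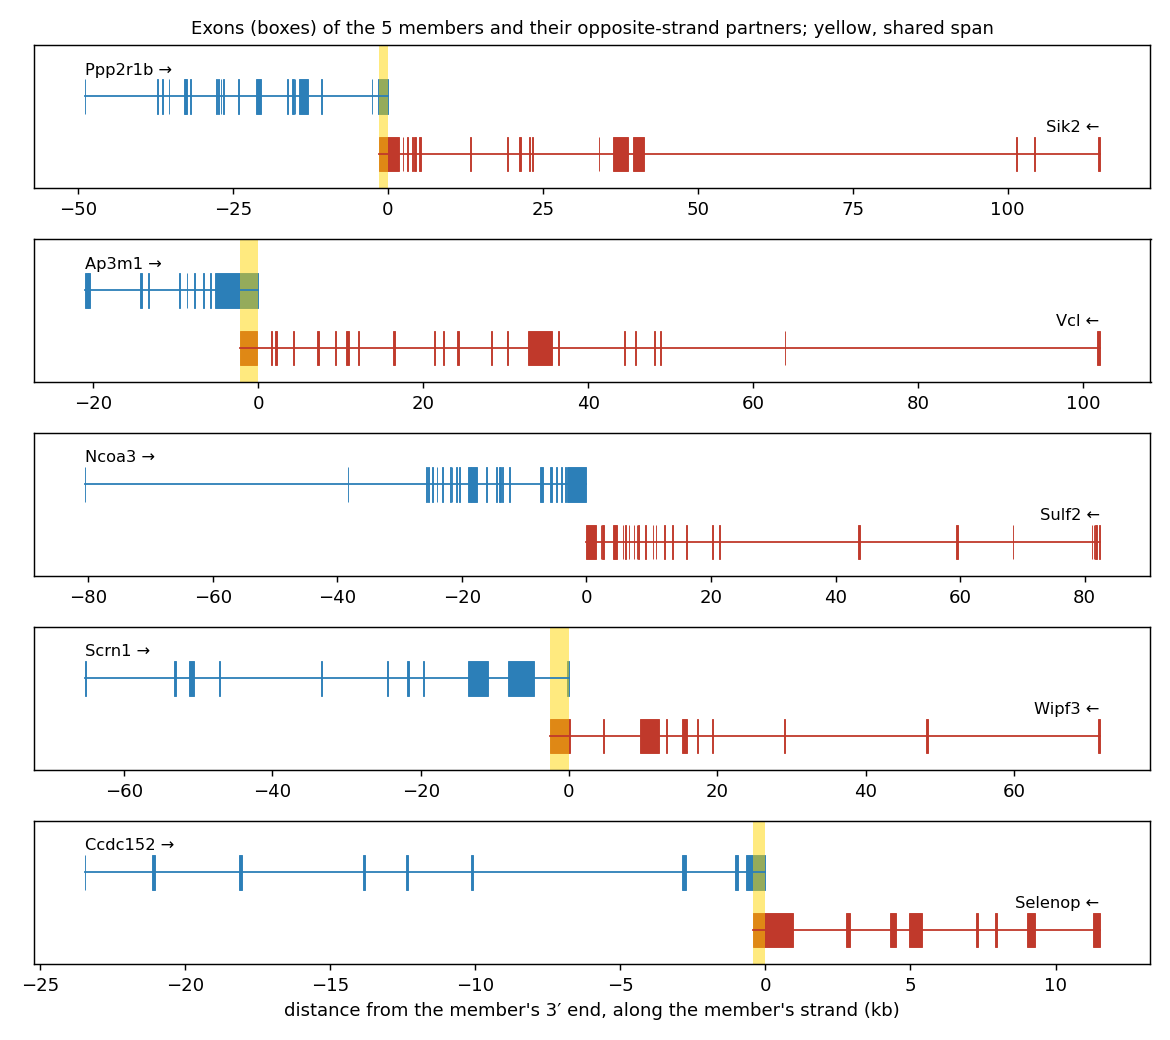
Gene models of the 5 pairs, with the distance in kb from the member's 3′ end on the x axis, measured along the member's strand; boxes are exons, blue for the member and red for its partner, and yellow marks the shared span. Each member runs to the right into the last exon of a partner that runs to the left, with a shared span between 154 bases at Ncoa3 and 2596 bases at Scrn1.

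The kit used for the libraries keeps the strand of the RNA, but neither the counting program nor whether it used the strand is stated in the sources used here. Gene counts per library ran between 704432 and 1962312 and were 1.42% to 1.84% of the reads listed, with 88.3% to 91.3% listed under no feature. The neuronal gene Snap25 had 7.04 to 21.2 CPM (counts scaled by effective library size to a common total) over the 12 libraries, and the immediate early gene Fos 0 to 6.78 CPM. A value under a symbol therefore belongs to the annotated feature and need not be the level of that gene's messenger RNA. The counts may be of RNA from the strand opposite to the annotated gene. In that case a value under a member would include RNA of its partner's strand, and the reverse. These tables do not tell the 2 strands apart. This holds for every value under a gene symbol that follows, those of gene lists and cell type markers included.

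Because the pairs share ends but not starts, the promoters in RefSeq (GRCm38.p6, 250 bases before to 50 after the start) were searched on both strands for motifs of activity-responsive factors: the CRE (TGACGTCA), a short CRE (TGACG, which the full CRE contains), an AP-1 site (TGANTCA), an EGR site (GCGNGGGCG) and a serum response element. The table holds 12 starts for 9 of the 10 genes, with none for Ncoa3. No start held a full CRE or an AP-1 site, which occur in 1.79% and 7.81% of all 32851 promoters. A short CRE, present in 20.8% of promoters, was found at Ap3m1, 2 times at Sik2 and once at Selenop, whose 3 starts have windows that overlap and hold the same match. Sik2 also held an EGR site, present in 5.55% of promoters, and Vcl a serum response element, present in 1.63%. The promoters of the first pairs are shown because they hold these matches, with each match in capitals, for Sik2 chr9:51009024-51009323 (minus strand), for Vcl chr14:20929148-20929447 (plus strand) and for Ap3m1 chr14:21052393-21052692 (minus strand), each 5′ to 3′:
Sik2: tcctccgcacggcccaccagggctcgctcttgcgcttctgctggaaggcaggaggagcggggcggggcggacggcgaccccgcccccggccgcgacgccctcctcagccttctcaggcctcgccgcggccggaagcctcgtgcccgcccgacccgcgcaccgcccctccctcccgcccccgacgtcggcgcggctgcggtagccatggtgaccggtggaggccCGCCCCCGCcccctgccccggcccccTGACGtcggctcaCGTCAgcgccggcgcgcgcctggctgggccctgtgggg
Vcl: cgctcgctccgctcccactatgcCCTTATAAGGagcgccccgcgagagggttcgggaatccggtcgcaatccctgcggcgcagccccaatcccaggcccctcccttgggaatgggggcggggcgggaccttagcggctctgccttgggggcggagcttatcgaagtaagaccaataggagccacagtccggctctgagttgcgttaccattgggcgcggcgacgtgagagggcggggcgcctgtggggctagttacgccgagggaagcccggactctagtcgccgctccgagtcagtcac
Ap3m1: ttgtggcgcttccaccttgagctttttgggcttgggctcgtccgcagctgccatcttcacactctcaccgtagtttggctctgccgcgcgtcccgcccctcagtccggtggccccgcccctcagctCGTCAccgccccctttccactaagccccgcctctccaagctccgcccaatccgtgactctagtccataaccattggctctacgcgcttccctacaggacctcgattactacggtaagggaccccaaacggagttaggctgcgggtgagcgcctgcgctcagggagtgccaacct

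The capitals mark, in Sik2, the EGR match and the pair of short sites around the start, in Vcl the serum response element at position -227 from the start, and in Ap3m1 a short site on the opposite strand at position -124. No match was found at Ccdc152, Scrn1, Sulf2, Wipf3 or Ppp2r1b, which says only that these letters are absent from those windows; the RefSeq start of Ppp2r1b lies 11623 bases from the 5′ end of the GENCODE gene. A match is a description of the sequence and not a site of binding.

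In input RNA, 3 of the 5 members had every MECS library above every naive one, as did 8.93% of all features tested. In U1 RNA it was 4 of the 5 members, and 9.06% of all features. By the test itself, 0.510% of the 10402 features tested were called higher and 0.0961% lower after MECS in input RNA, at a Benjamini-Hochberg adjusted p under 0.05 in edgeR's quasi-likelihood test. In U1 RNA 0.332% of 11141 features were called higher and 0.0539% lower. These calls chose the members: Ap3m1, Ncoa3 and Scrn1 were called in input RNA, and Ppp2r1b, Ap3m1 and Ccdc152 in U1 RNA. In bulk tissue, fewer cells of a type and less RNA per cell cannot be told apart.

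Ap3m1 was the only member called in both kinds of RNA. Its values were 874, 668 and 877 CPM in MECS input, against 469, 505 and 410 CPM in naive input, and 888, 726 and 861 CPM in MECS U1, against 419, 461 and 479 CPM in naive U1. No MECS library overlapped a naive one in either RNA. The log2 difference was 0.78 (SE 0.16) in input RNA and 0.84 (SE 0.14) in U1 RNA, that is 1.72-fold and 1.79-fold.

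Ncoa3 was the member with the steadiest naive input, at 55.7, 54.9 and 54.3 CPM, against 111, 116 and 131 CPM in MECS input. Its MECS U1 libraries had 115, 78.1 and 121 CPM and its naive U1 libraries 89.3, 83.4 and 66.3 CPM. The input groups were wide apart, whereas in U1 RNA the second MECS library fell among the naive ones. The log2 difference was 1.09 (SE 0.19) in input RNA, or 2.13-fold, and 0.38 (SE 0.20) in U1 RNA, or 1.30-fold.

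Scrn1 had 115, 107 and 153 CPM in MECS input, against 66.9, 60.7 and 57.3 CPM in naive input. In U1 RNA it had 77.3, 63.5 and 73.8 CPM after MECS and 44.1, 35.7 and 37.0 CPM in naive brain. The groups did not overlap in either RNA, and U1 RNA was lower than input in both states. The log2 difference was 0.99 (SE 0.20) in input RNA and 0.88 (SE 0.21) in U1 RNA, and the counts behind it were small, between 36 and 159 reads per library.

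Ppp2r1b, called in U1 RNA only, had the larger measured difference there. It had 696, 479 and 684 CPM in MECS input, against 528, 337 and 418 CPM in naive input, and 609, 493 and 601 CPM in MECS U1, against 272, 298 and 302 CPM in naive U1. In input RNA the lowest MECS library lay below the highest naive one, and in U1 RNA the groups were far apart. The log2 difference was 0.51 (SE 0.17) in input RNA and 0.94 (SE 0.14) in U1 RNA, or 1.42-fold and 1.92-fold.

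Ccdc152 was the most abundant member and the one whose input RNA showed least difference. It had 1394, 1122 and 1004 CPM in MECS input, against 1272, 1105 and 730 CPM in naive input, and 852, 680 and 562 CPM in MECS U1, against 256, 505 and 292 CPM in naive U1. The input groups overlapped broadly, and in U1 RNA the lowest MECS library was still above the highest naive one. The log2 difference was 0.16 (SE 0.17) in input RNA and 0.96 (SE 0.20) in U1 RNA, or 1.12-fold and 1.94-fold. Without the third naive input library the input difference was -0.02, and leaving out each library in turn moved the U1 difference between 0.79 and 1.34, the highest without the second naive U1 library.

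Over all features tested, 6.02% in input RNA and 6.43% in U1 RNA had every MECS library below every naive one. The median log2 difference over all features was -0.02 in both kinds of RNA. Per exon kilobase, Ccdc152 was the highest member in all 4 groups, at 864 ± 147 CPM per kb in MECS input and 763 ± 204 CPM per kb in naive input (SD, n = 3). Ap3m1 followed at 115 ± 17.1 and 65.8 ± 6.86 CPM per kb and Ppp2r1b at 96.1 ± 18.9 and 66.3 ± 14.9 CPM per kb, and in input RNA these neighbours in the order did not differ beyond their spread. Ncoa3, at 15.1 ± 1.32 and 6.96 ± 0.091 CPM per kb, and Scrn1, at 14.5 ± 2.86 and 7.15 ± 0.563 CPM per kb, were likewise within their spread of each other in input RNA. In U1 RNA both pairs were apart: Ap3m1 had 118 ± 12.3 CPM per kb after MECS and 64.6 ± 4.44 in naive brain, against 88.0 ± 10.1 and 45.1 ± 2.56 CPM per kb for Ppp2r1b, and Ncoa3 had 13.3 ± 2.95 and 10.1 ± 1.52, against 8.30 ± 0.831 and 4.52 ± 0.523 CPM per kb for Scrn1.

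**Figure D2:**
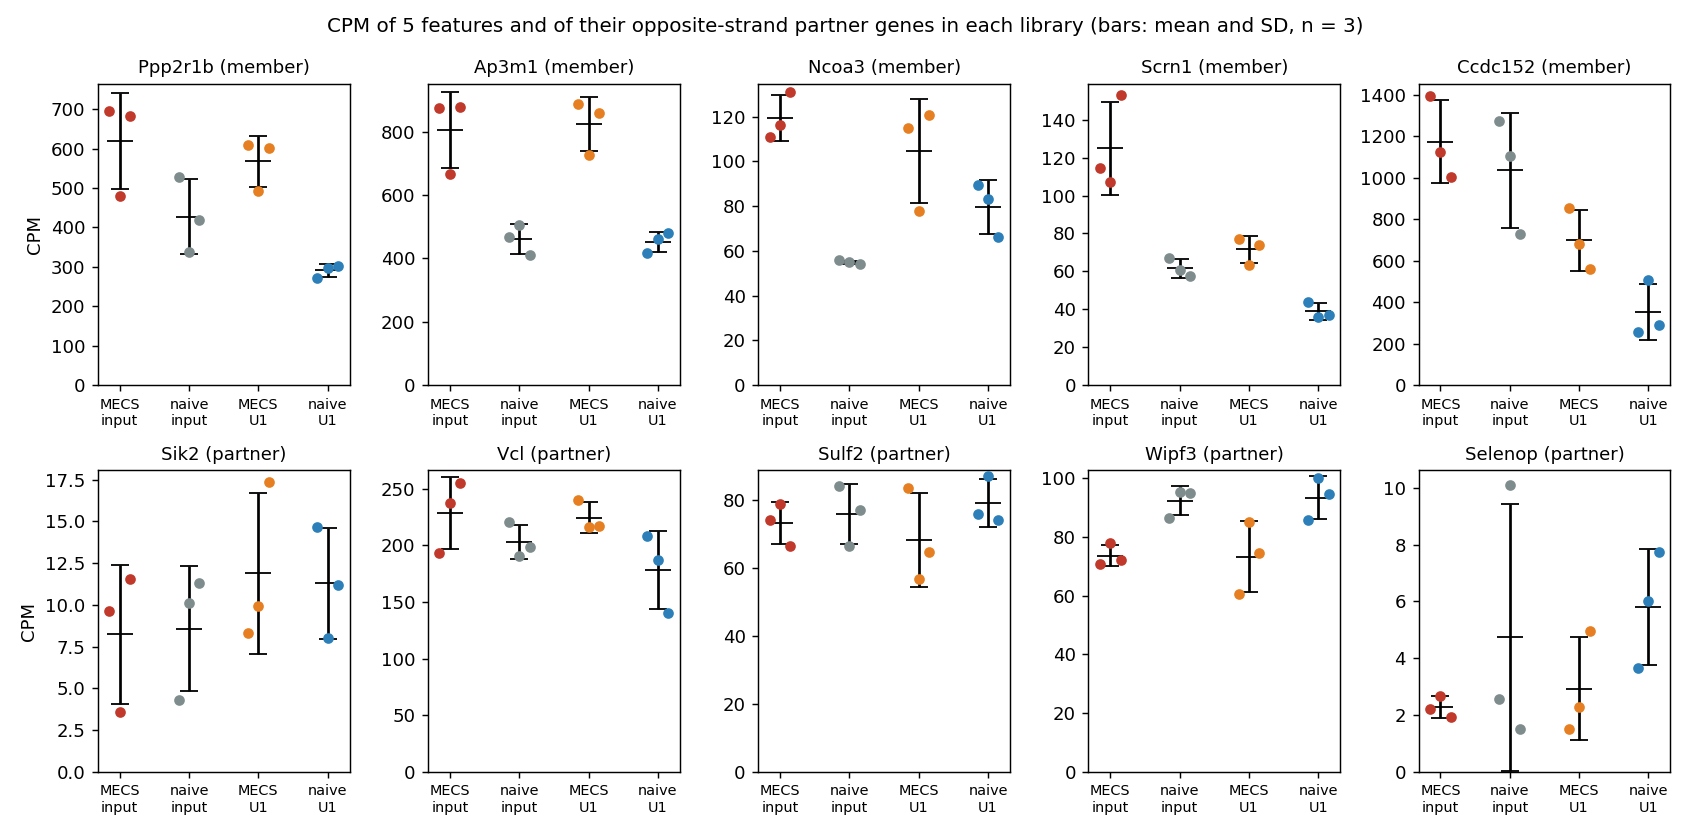
CPM on the y axis of each panel for the 5 members (top) and their partner genes (bottom) in MECS input, naive input, MECS U1 and naive U1 libraries; points are libraries and bars the mean and SD of 3. In both kinds of RNA the MECS libraries of Ap3m1 and Scrn1, members chosen by higher MECS counts, sit above all naive ones. Among the partners, which were not chosen so, only Vcl in U1 RNA does the same, at 216 to 240 CPM after MECS and 140 to 208 CPM in naive brain.

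No partner gene passed the threshold after MECS, on 4 tested genes. Few of all features passed either, with 0.510% higher and 0.0961% lower in input RNA and 0.332% and 0.0539% in U1 RNA. The absence of calls is therefore no result about the partners. Of the 4 tested in edgeR's test, none was called in input RNA or in U1 RNA, none had an unadjusted p under 0.05, and DESeq2 called 0 of them in either. Sik2 had a mean of 8.25 ± 4.16 CPM in MECS input and 8.57 ± 3.76 CPM in naive input (SD, n = 3), with a log2 difference of -0.07 (SE 0.52) and an edgeR adjusted p of 0.983. Sik2 had 4 to 28 reads per library, and its SE in input RNA was about as large as the difference of Ppp2r1b there.

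Vcl had 194, 237 and 255 CPM in MECS input, against 220, 191 and 198 CPM in naive input, a log2 difference of 0.14 (SE 0.16) with an edgeR adjusted p of 0.832. In U1 RNA its MECS libraries all lay above the naive ones, with a log2 difference of 0.31 (SE 0.16) and an edgeR adjusted p of 0.505. Sulf2 differed by -0.09 (SE 0.20) in input RNA and by -0.24 (SE 0.19) in U1 RNA on the log2 scale, and its groups overlapped in both.

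Wipf3 was measured lower after MECS, without passing the test. It had 71.0, 77.8 and 72.2 CPM in MECS input, against 86.6, 95.3 and 95.0 CPM in naive input, and 60.6, 84.9 and 74.4 CPM in MECS U1, against 85.7, 100 and 94.7 CPM in naive U1. Every MECS library was below every naive one in both kinds of RNA, but the log2 differences of -0.35 (SE 0.19) and -0.38 (SE 0.18) did not pass edgeR's threshold, with adjusted p-values of 0.587 in input RNA and 0.474 in U1 RNA. Selenop had 2 to 12 reads per library, too few to be tested.

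**Figure D3:**
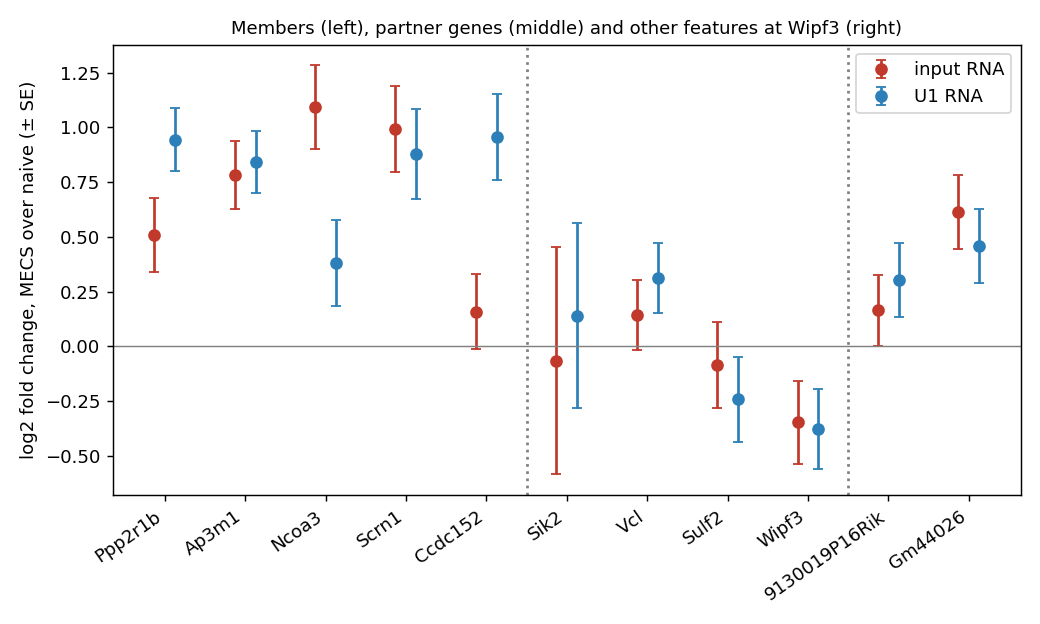
Log2 fold change of MECS over naive brain on the y axis, with its SE, in input RNA (red) and U1 RNA (blue) for the 5 members, the 4 tested partners and the pair of further features at Wipf3. Member values run from 0.16 to 1.09 and partner values from -0.38 to 0.31. The members were chosen by higher MECS counts in these libraries, so their contrast with the partners is no result.

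The balance between a member and its partner is given as a description, since it rests on the counts that chose the members. Counts of Scrn1 per exon kilobase over those of Wipf3 had a median of 1.33 in MECS input, against 0.526 in naive input. In U1 RNA that median was 0.819 after MECS, against 0.323 in naive brain. Ncoa3 over Sulf2 had a median of 1.12 in MECS input, against 0.525 in naive input, and in U1 RNA one of 1.03 after MECS, against 0.714 in naive brain. For these 2 pairs the ranges over libraries did not overlap between states in either RNA.

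The other pairs were far from balance in every library. Ap3m1 over Vcl had medians of 4.01 and 4.32 in MECS input and U1 RNA, against 2.49 and 2.88 in naive input and U1 RNA, and the ranges overlapped in U1 RNA. Ppp2r1b over Sik2 had medians of 107 and 73.3 after MECS, against 54.6 and 39.9 in naive brain, with ranges that overlapped in both kinds of RNA and with few Sik2 reads below the line. Ccdc152 exceeded Selenop most, with medians of 1091 and 619 after MECS in input and U1 RNA, against 1014 and 146 in naive brain, and the ranges overlapped in input RNA.

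Apart from members and partners, 13 features overlap the 5 loci or are the nearest on either side. Between MECS and naive brain edgeR's test called none of the 4 tested in input RNA, where 1 had an unadjusted p under 0.05, and none of the 5 tested in U1 RNA, where 2 did. DESeq2 called 0 of them in input RNA and 0 in U1 RNA. Over all features edgeR's test called 0.510% higher and 0.0961% lower in input RNA, and 0.332% and 0.0539% in U1 RNA. So few tested features without a call are no result about the loci. Gm44026, an antisense gene inside Wipf3 on the strand of Scrn1 (chromosome 6, 54463685 to 54473170), came closest. It had 259, 194 and 290 CPM in MECS input, against 151, 143 and 181 CPM in naive input, with no overlap and a log2 difference of 0.61 (SE 0.17, edgeR adjusted p = 0.0863). In U1 RNA its log2 difference was 0.46 (SE 0.17, edgeR adjusted p = 0.303). 9130019P16Rik, which overlaps the start of Wipf3 on that same strand, differed by 0.16 (SE 0.16) in input RNA and 0.30 (SE 0.17) in U1 RNA on the log2 scale, with groups that overlapped.

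Ghr, the growth hormone receptor gene upstream of Ccdc152, had 12.2 to 18.9 CPM in MECS U1 and 4.90 to 9.05 CPM in naive U1, a log2 difference of 1.06 (SE 0.41) with an edgeR adjusted p of 0.325, at 4 to 25 reads per library in U1 RNA. Adk, whose start lies 65 bases from that of Ap3m1, had at most 3 reads in any library.

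Averaged over both states, U1 RNA held less of 3 of the 5 members than input RNA did, and these were Ccdc152, Scrn1 and Ppp2r1b. Of all 12184 features tested, 9.45% were called lower in U1 RNA and 7.92% higher. Among other protein-coding genes with a tail-to-tail overlap, 19.5% were called lower. With 5 members, and a call of Ppp2r1b that did not hold in every alternative, no share of the members is read from these calls. Ccdc152 was lower by a log2 difference of -1.14 (SE 0.14), or 0.453-fold, with an edgeR adjusted p of 1.27e-07. Scrn1 was lower by -0.74 (SE 0.14), or 0.600-fold, with an edgeR adjusted p of 0.000151.

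Ppp2r1b was lower by -0.34 (SE 0.12), or 0.790-fold, with an edgeR adjusted p of 0.0374. That call did not hold with plain library size scaling (-0.29, adjusted p = 0.0627), nor in edgeR's test without the first naive input library (adjusted p = 0.120), the first or the third MECS input library (adjusted p = 0.0916 and 0.103), the first naive U1 library (adjusted p = 0.0767) or the second MECS U1 library (adjusted p = 0.106). Ap3m1 differed by 0.01 (SE 0.10, edgeR adjusted p = 0.971), a value whose sign turned in 9 of the alternatives tried, and Ncoa3 by 0.18 (SE 0.14, edgeR adjusted p = 0.429). Of the 4 tested partners none passed in edgeR's test or in DESeq2, with a lowest unadjusted p of 0.199 and log2 differences of 0.45 (SE 0.34) for Sik2, -0.11 (SE 0.11) for Vcl, -0.02 (SE 0.14) for Sulf2 and 0.02 (SE 0.13) for Wipf3.

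Other genes with a tail-to-tail overlap are given for scale. Leaving out the 5 members, 230 of 1180 tested genes of that arrangement, or 19.5%, were called lower in U1 RNA and 65, or 5.51%, higher, with a median log2 difference of -0.08, against 0.03 over all features. After MECS, 1 of 1124 such genes was called higher in input RNA and 1 of 1142 in U1 RNA, against 0.510% and 0.332% of all features. They were mt-Nd6 with a log2 difference of 1.24 (SE 0.21) and Ica1l with 0.75 (SE 0.15), both named after their values were seen. With the members kept, the class held 4 calls in each RNA, 3 of them members. Leaving out members chosen by these calls lowers the count, so it is no result about the class.

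Cell type markers moved between U1 and input RNA as well. The summed level of 8 neuronal markers was 86.5 to 131 CPM in MECS U1 and 75.9 to 177 CPM in naive U1, against 239 to 343 CPM in MECS input and 230 to 396 CPM in naive input, and all 8 had counts in every group. The summed level of 6 pericyte and smooth muscle markers was 276 to 425 CPM in U1 RNA, against 231 to 267 CPM in input RNA. Of 6 blood markers, Hba-a1, Hbb-bs, Hbb-bt and S100a8 were at 0 in every library, while Alas2 had 303 to 433 CPM and Ptprc 2.01 to 9.79 CPM, and their summed level was 343 to 435 CPM in U1 RNA, against 307 to 393 CPM in input RNA. Their part in the difference of the members between U1 and input RNA was not tested. Between MECS and naive U1 RNA edgeR's test called 0 of 29 markers tested, where 3 had an unadjusted p under 0.05 and DESeq2 called 0. Over all features edgeR's test called 0.332% higher and 0.0539% lower there, so 0 calls is no result about the markers. The summed level of 6 endothelial markers was 174 to 197 CPM in MECS U1, against 220 to 257 CPM in naive U1, and 152 to 163 CPM in MECS input, against 165 to 201 CPM in naive input. That of the pericyte and smooth muscle markers was 276 to 287 CPM in MECS U1, against 320 to 425 CPM in naive U1. In input RNA the latter overlapped, at 231 to 267 CPM after MECS and 235 to 248 CPM in naive brain. Much of these sums was a single gene, Tek at 112 to 177 CPM and Notch3 at 105 to 225 CPM over the 12 libraries. The sums of the other marker lists overlapped between MECS and naive U1 RNA. The part of these markers in the members' values was not tested.

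The ratio of U1 to input RNA within each lysate was higher after MECS for some members and lower for others. Ccdc152 had log2 ratios of -0.71, -0.72 and -0.84 in MECS lysates, against -2.31, -1.13 and -1.32 in naive lysates, with no overlap. Ncoa3 had log2 ratios of 0.05, -0.57 and -0.11 in MECS lysates, against 0.67, 0.59 and 0.28 in naive lysates, again with no overlap but in the other direction. Ppp2r1b had -0.19, 0.04 and -0.19 in MECS lysates, against -0.95, -0.17 and -0.47 in naive lysates, where 1 naive lysate reached the MECS range. The share of all features whose ratios are apart in this way was not computed. The lack of overlap at Ccdc152 and Ncoa3 is therefore no result about them.

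For Ap3m1 and Scrn1 the ratios of the states overlapped, between -0.03 and 0.12 in MECS lysates and between -0.16 and 0.22 in naive lysates for Ap3m1, and between -1.04 and -0.56 in MECS lysates and between -0.74 and -0.58 in naive lysates for Scrn1. In the fit over all 12 libraries the ratio differed between MECS and naive brain by 0.79 (SE 0.28) on the log2 scale for Ccdc152, 0.43 (SE 0.23) for Ppp2r1b, 0.05 (SE 0.21) for Ap3m1, -0.12 (SE 0.28) for Scrn1 and -0.72 (SE 0.27) for Ncoa3. These values use the libraries that chose the members and are a description. Ccdc152 and Ppp2r1b were called in U1 RNA only, which favours a higher ratio after MECS. Ncoa3 and Scrn1 were called in input RNA only, which favours a lower one. The directions are therefore no result about the members. For the tested partners the ratio differed between MECS and naive brain by -0.16 to 0.19. None passed in edgeR's test, with an adjusted p of 0.997 for each and unadjusted p-values of 0.476 and above.

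**Figure D4:**
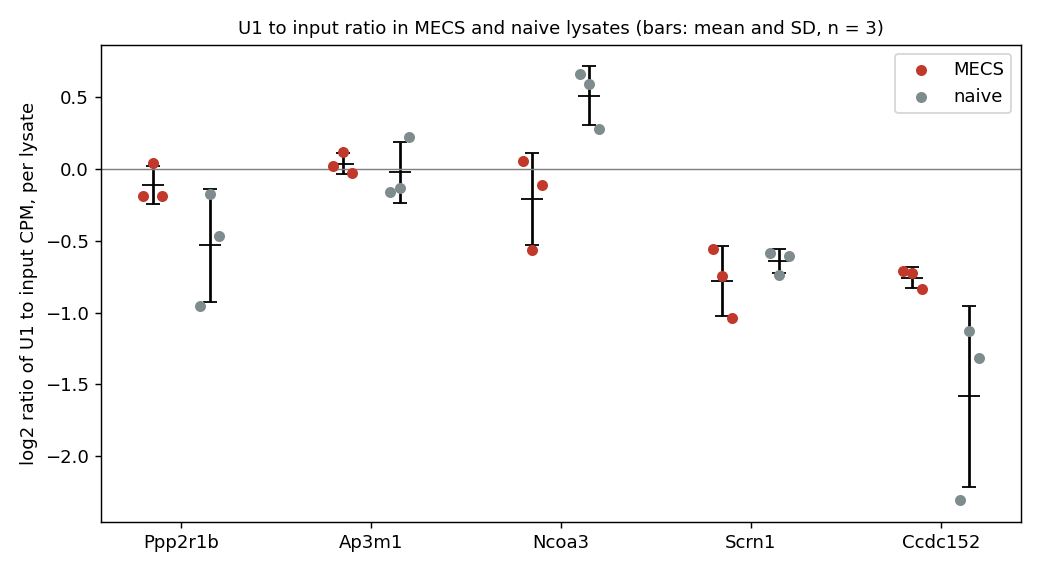
Log2 ratio of U1 to input CPM on the y axis for each of 3 MECS lysates (red) and 3 naive lysates (grey), with bars for the mean and SD, for the 5 members. The lysates of the states are apart for Ncoa3, with -0.21 ± 0.32 in MECS and 0.51 ± 0.20 in naive lysates, and for Ccdc152, with -0.76 ± 0.070 and -1.58 ± 0.63. The members were chosen from these libraries and the share of all features apart in this way was not computed, so this is no result.

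Genes related to the members and partners by function were read under their own symbols in 10 lists that held 189 entries without the members and partners. In edgeR's test 0 of the 76 entries tested were called between MECS and naive input RNA and 0 of 83 in U1 RNA, where 6 and 7 had an unadjusted p under 0.05 and DESeq2 called 0 in each. Over all features 0.510% were called higher and 0.0961% lower in input RNA, and 0.332% and 0.0539% in U1 RNA. At such shares 0 calls is no result about these lists. That held for 11 tested subunits and regulators of protein phosphatase 2A, for 7 genes of the AP-3 adaptor and associated vesicles, for 13 and 14 genes of vinculin and focal adhesions, and for 12 activity-induced genes. The other secernins, Scrn2 and Scrn3, were too low to be tested, with medians of 0.310 and 5.96 CPM.

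Between U1 and input RNA over both states, 8 of 93 tested entries, or 8.60%, were called higher and 10, or 10.8%, lower. These shares are near those over all features, 7.92% and 9.45%, and so are no result about the relatives as a group; the called genes are given as single values. Among relatives of the members, Ppp2r2c, a regulatory subunit of protein phosphatase 2A, was lower by -1.01 (SE 0.29, edgeR adjusted p = 0.0130), and the corepressor gene Ncor1 by -0.37 (SE 0.10, edgeR adjusted p = 0.00582). In the AP-3 and vesicle list Slc17a7, a vesicular glutamate transporter that is also a neuronal marker here, and Snapin were lower by -1.56 (SE 0.22) and -0.89 (SE 0.22), and Bloc1s2 was higher by 0.51 (SE 0.16).

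Among relatives of the partners, the focal adhesion genes Sorbs3, Tns1 and Flna were higher in U1 RNA by 1.31 (SE 0.19), 1.34 (SE 0.32) and 1.22 (SE 0.30), and the heparan sulfate genes Agrn and Ext2 by 0.58 (SE 0.18) and 1.09 (SE 0.38). In the WASP list Arpc4 and Arpc1b were higher by 1.27 (SE 0.31) and 0.33 (SE 0.11), whereas Cyfip1 and Cyfip2 were lower by -0.65 (SE 0.12) and -0.70 (SE 0.23). Stk11, a kinase that activates the salt-inducible kinases, was lower by -0.76 (SE 0.14), and 3 activity-induced genes, Junb, Arc and Egr4, were lower by -0.65 (SE 0.20), -0.81 (SE 0.27) and -1.22 (SE 0.44). The median log2 differences of these lists lay between -0.18 and 0.13, against 0.03 over all features.

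Across the 12 libraries the members were alike to differing degrees. Pearson's r of log2 CPM was highest between Ppp2r1b and Scrn1, at 0.86, and between Ppp2r1b and Ap3m1, at 0.84, and lowest between Ncoa3 and Ccdc152, at 0.09. Ap3m1 and Ncoa3 had an r of 0.80 and Scrn1 and Ccdc152 one of 0.73. The points are the same 12 libraries in 4 groups, so these values are given as a description.

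Among the 12183 other features, those most like each member were mostly antisense genes, pseudogenes and unclassified transcripts. The share of these kinds among all features compared was not computed, so the mix is not read as particular to the members. The nearest were Gm26679 for Ppp2r1b (r = 0.96), Gm47660 for Ap3m1 (r = 0.96), Gm18030 for Ncoa3 (r = 0.94), 1700022N22Rik for Scrn1 (r = 0.92) and Gm37676 for Ccdc152 (r = 0.97). The first 3 of each member held 2 protein-coding genes, Hif1a for Ap3m1 (r = 0.95), which encodes the oxygen-regulated subunit of a hypoxia-inducible factor, and Plcd4 for Scrn1 (r = 0.92), which encodes a phospholipase C. No partner was among them.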

How the data were processed

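RNA of 12 libraries was analysed from the counts per gene that the authors deposited, 1 table per library with 55471 identifiers, of which 55230 are in GENCODE M21. Per the submitters' processing notes, the build was mm10 and the tools named were HISAT2 2.2.0, Salmon 1.4, StringTie 2.1.3, DESeq2, Trimmomatic 0.39 and FastQC. Which of them made the counts, and whether strand was used, is not stated in the sources used here. Reads listed under no gene, 98.2% to 98.6% of each table, entered neither library sizes nor tests.

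Counts were tested with edgeR 4.0.16 (R 4.3.3) by its quasi-likelihood test, with TMM scaling, its default filter on low counts and Benjamini-Hochberg adjustment over all features tested, at a threshold of 0.05. Each MECS and naive comparison used its 6 libraries; U1 against input over both states used all 12. The SE was taken as the log2 fold change over the root of the F statistic, and CPM used 1 scaling over the 12 libraries, with a prior count of 2 for log2 CPM. Correlations of replicates within a group were at least 0.918 and no columns were identical. The pipeline was tested on simulated counts. DESeq2 1.42.0, other scalings and filters, a fit with the replicate number as a block, and fits without 1 library were tried as alternatives.

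The members and gene lists were chosen with earlier results of these data known. The text names the 5 members, their partners, every feature overlapping these genes or nearest to them, the 3 features most correlated with each member, and up to 4 called symbols per list and comparison. Equal numbers in the titles tie a U1 library to the input of the same lysate; deviations of such pairs from their group means correlated by 0.02, -0.08 and -0.01 in naive and 0.08, 0.16 and 0.09 in MECS lysates. Some marker results are not reported here.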

Additional observations from a re-analysis of the deposited data

How the results depend on the processing

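Of 563 recomputed values of single members and partners, 6 lost the call and 27 changed sign, 21 of them tested and 6 given without a test. The 6 without a test moved by less than the replicate spread and were 5 values of Ap3m1 in U1 against input RNA within a state, at -0.086 to 0.071, and 1 of Ccdc152 in input RNA, at -0.02 without the third naive library. The lost calls all concern Ppp2r1b in U1 against input RNA, at -0.29 (adjusted p = 0.0627) with library size scaling and -0.42 to -0.28 without each library. The tested sign changes are of values near 0. For Ap3m1 over both states they came with RLE size factors (-0.00305), without a filter (-0.00278) and with DESeq2 (-0.00241), with -0.053 to 0.049 without each library. For Sulf2 one came with library size scaling (0.028), with -0.10 to 0.035 without each library, and Wipf3 ran between -0.044 and 0.073. Sik2 between MECS and naive brain ran between -0.41 and 0.30 in input RNA and between -0.26 and 0.35 in U1 RNA. The members called in U1 against input RNA numbered 2 or 3 and the partners called after MECS 0 under every alternative.

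Counts over all features moved more, and for those the cause was not tested. The 63 features called in input RNA after MECS became 129 with library size scaling, 111 without a filter, 97 with a filter on CPM, 142 with the replicate block and 19 to 114 without each library. The 43 in U1 RNA became 151 without a filter, 92 with a filter on CPM, 86 with DESeq2, 88 with all 12 libraries in 1 fit and 13 to 225 without each library. U1 against input RNA gave 918 calls in MECS brain, 1488 with the replicate block, and 1141 in naive brain, with 711 to 1254 without each library. The same numbers in MECS and naive brain only number the samples, whose deviations correlated by 0.05, -0.04 and -0.01 in input RNA and 0.00, -0.00 and -0.09 in U1 RNA. With the replicate block U1 against input over both states gave -0.32 for Ppp2r1b, and the block changed no call of a member or partner. Depth limits Sik2 and Selenop most, at 4 to 28 and 2 to 12 reads per library.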
